A study of Saccharomyces cerevisiae with 5 samples.

Results

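Internal transcribed spacer 2 (ITS2) is the stretch of the 35S ribosomal RNA precursor between 5.8S and 25S rRNA. It was taken as every nucleotide that the deposited files name ITS 2, which are 232 of the 6858 nucleotides of the 35S gene. They span chromosome XII from 464319 to 464550, which is the gene ITS2-2 (YNCL0022C) in the RefSeq table of the R64 assembly. The gene is read toward the lower coordinates, and nucleotides are counted here from nt 1, the first after the 3′ end of 5.8S, to nt 232, the last before 25S. The first 50 nt were treated apart from the other 182, which are called the rest of ITS2.

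The 3′ ends of RNA bound to RNA polymerase I were mapped in budding yeast by native elongating transcript sequencing (NET-seq). There were 2 libraries of the rpa190-F1205H strain and 3 of the wild type (WT). The strain carries a substitution in Rpa190, the largest and catalytic subunit of the polymerase. All 5 came from cells with a C-terminal HA and histidine tag on Rpa135, the second-largest subunit, grown in rich medium, so WT here is a tagged strain. The titles of the mutant samples write F105H where the genotype label has f1205h, and inside both mutant files the column naming the sample reads WT 1 and WT 2. The titles thus also name a mutant, but that the substitution is F1205H rests on the genotype label alone, and the column inside the files conflicts with both. The labels do not say whether the libraries of a genotype came from separate cultures, so p-values measure the spread between these libraries, which may be technical.

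ITS2 is removed while 25S and 5.8S mature. The endonuclease Las1 cuts the precursor inside ITS2 at a site called C2, which leaves the 7S precursor of 5.8S with part of ITS2 at its 3′ end. The exosome, a complex of 3′-to-5′ exonucleases, shortens 7S first to a form with about 30 nt of ITS2 and then to one with about 8 nt, which other exonucleases trim to the mature end. A 3′ end in ITS2 can therefore lie in a polymerase or mark such an intermediate, and the counts do not tell them apart. No file marks C2. From general knowledge it was placed at nt 138 (chromosome XII, 464413), 94 nt before the last nucleotide, and that place holds only to within a few nucleotides.

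The sequence is shown because the results turn on particular bases in it. In the first 2 lines, capitals mark nucleotides called higher in the mutant than in WT by edgeR's quasi-likelihood test, with adjusted p under 0.05. Some of them, named below, had almost no WT counts and passed the filter on low counts only through the mutant libraries. For those the capital is a description and not a test result. The first line is scaled to all ITS2 counts and the second to the counts in the rest of ITS2. In the last line, which repeats the 25 nt on each side of C2, the capital is nt 138. All are RNA letters as the files give them, 5′ to 3′, minus strand.
First 50 nt, XII:464501-464550: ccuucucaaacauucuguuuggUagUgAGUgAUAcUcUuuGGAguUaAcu
Rest of ITS2, XII:464319-464500: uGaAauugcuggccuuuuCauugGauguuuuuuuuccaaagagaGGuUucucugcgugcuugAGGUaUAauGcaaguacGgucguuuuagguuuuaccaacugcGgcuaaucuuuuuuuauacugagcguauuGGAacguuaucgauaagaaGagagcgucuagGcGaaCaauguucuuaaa
Around C2, XII:464388-464438: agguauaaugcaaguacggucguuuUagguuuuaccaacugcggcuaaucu

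The sense counts of ITS2 were 40456 and 5844 in the mutant libraries, and 8374, 6704 and 6734 in the WT libraries. This was 2.06% ± 0.166 of the 35S sense counts in the mutant (SD, n = 2) and 1.52% ± 0.0836 in WT (SD, n = 3). The small net difference joined opposite differences in the 2 stretches. The first 50 nt held 0.528% ± 0.0322 of the 35S counts in the mutant and 0.971% ± 0.0649 in WT, whereas the rest of ITS2 held 1.53% ± 0.133 in the mutant and 0.551% ± 0.0263 in WT. The rest of ITS2 thus held 2.78 times as large a share of the gene in the mutant. The median nucleotide of the rest held 67 and 12 counts in the mutant libraries, and 6, 5 and 5 in the WT libraries. A count of 0 allows a share of the rest of up to 0.00993% and 0.0694% in the mutant libraries, and 0.0996%, 0.128% and 0.119% in the WT libraries (3 counts of the total; counting error only). With 2 libraries against 3 there are 10 splits, and a two-sided exact permutation test cannot go below p = 0.2. The shares tested below that did not overlap between the genotypes reached that value, and none passed a threshold of 0.05. Adjusted over the 8 shares tested, p = 0.2 became 0.229 (exact permutation test with Benjamini-Hochberg adjustment).

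**Figure D1:**
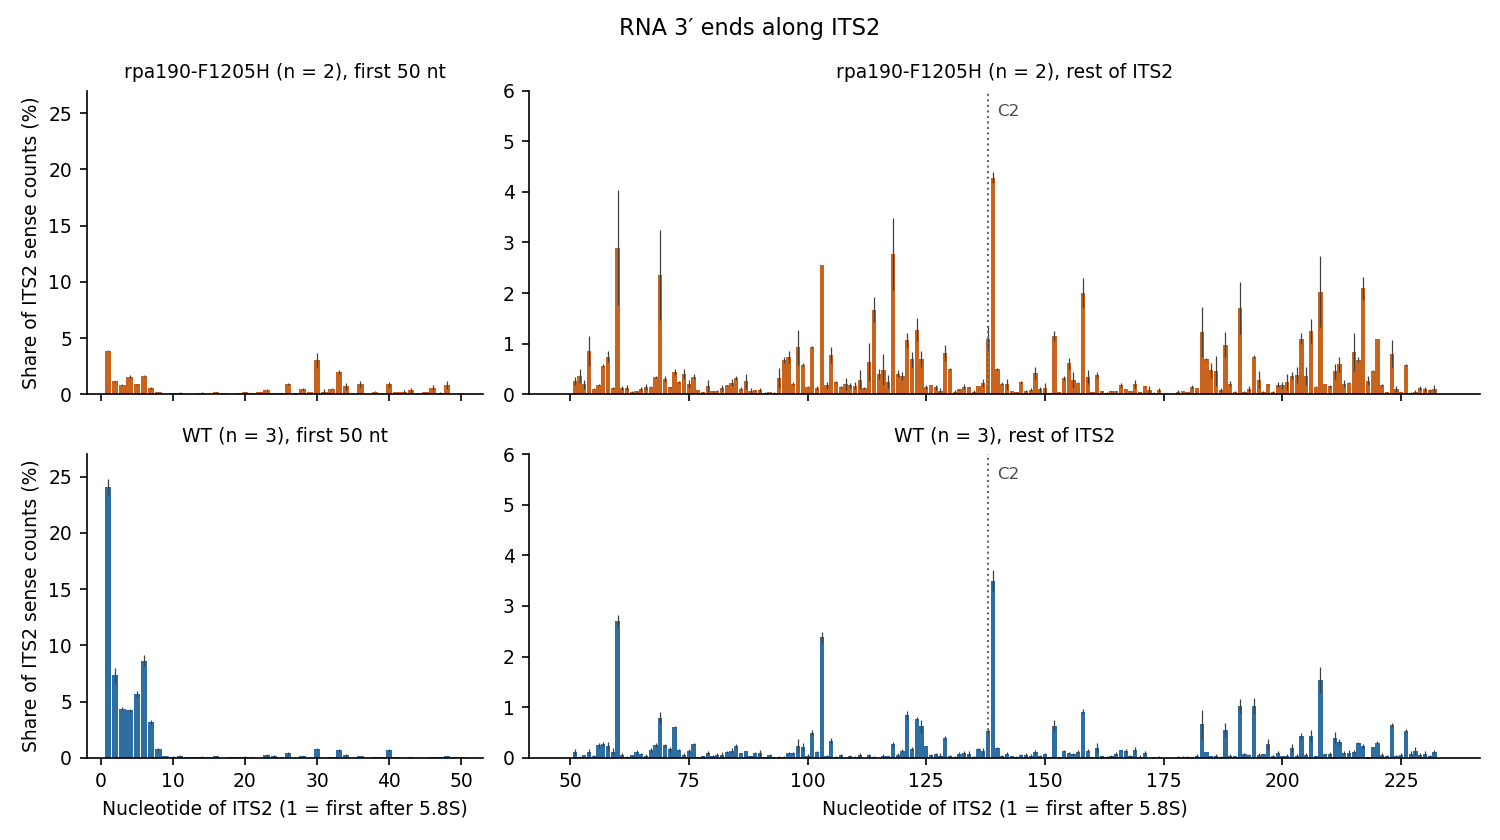
Mean share of ITS2 sense counts (%) at each nucleotide of ITS2, in rpa190-F1205H above and WT below, for the first 50 nt on the left and the rest on the right, with different vertical scales. Bars are means over libraries, lines are SD, and the dotted line is C2 at nt 138. In WT the highest bar is nt 1 at 24.0%, and in the mutant it is nt 139 at 4.28%.

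Within ITS2, the genotypes differed most plainly next to 5.8S. The first 50 nt held 25.3% and 26.0% of ITS2 counts in the mutant libraries, and 64.0%, 64.9% and 62.4% in the WT libraries. Almost all of the WT signal there lay in the first 8 nt, the length of the short tail that the last exonucleases remove. Nt 1 to 8 held 10.5% and 11% of ITS2 counts in the mutant libraries, against 58.7%, 59.5% and 56.5% in the WT libraries, with no overlap. As part of the first 50 nt, these 8 held 41.9% ± 0.493 in the mutant and 91.3% ± 0.634 in WT. The other 42 nt of the stretch differed in the opposite direction, with 14.9% ± 0.164 of ITS2 counts in the mutant and 5.56% ± 0.295 in WT.

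The same stretches were also set against the count at the mature end of 5.8S. For every 100 counts at the last nucleotide of 5.8S there were 3.78 and 3.60 counts at nt 1 to 8 in the mutant libraries, against 5.71, 5.94 and 5.34 in the WT libraries. At nt 9 to 50 there were 5.33 and 4.92 in the mutant libraries, and 0.524, 0.537 and 0.557 in the WT libraries. In the rest of ITS2 there were 26.9 and 24.2 in the mutant libraries, and 3.50, 3.50 and 3.55 in the WT libraries. The mature end itself was a smaller part of the gene in the mutant, at 6.04% and 5.93% of 35S counts in the mutant libraries, against 16.6%, 15.1% and 15.3% in the WT libraries, which enlarges these ratios. Per count at the mature end, nt 9 to 50 stood 9.50 times and the rest 7.26 times as high in the mutant as in WT, but as shares of 35S 3.64 times and 2.78 times. Nt 1 to 8 stood 0.651 times as high per count at the mature end, and 0.249 times as a share of 35S. The fall at nt 1 to 8 was thus smaller when set against the mature end, which was itself lower in the mutant. The ratios were chosen after the values were seen and were not tested. The rest held 4.98 ± 0.0884 times as many counts as nt 9 to 50 in the mutant and 6.52 ± 0.151 times as many in WT.

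**Figure D2:**
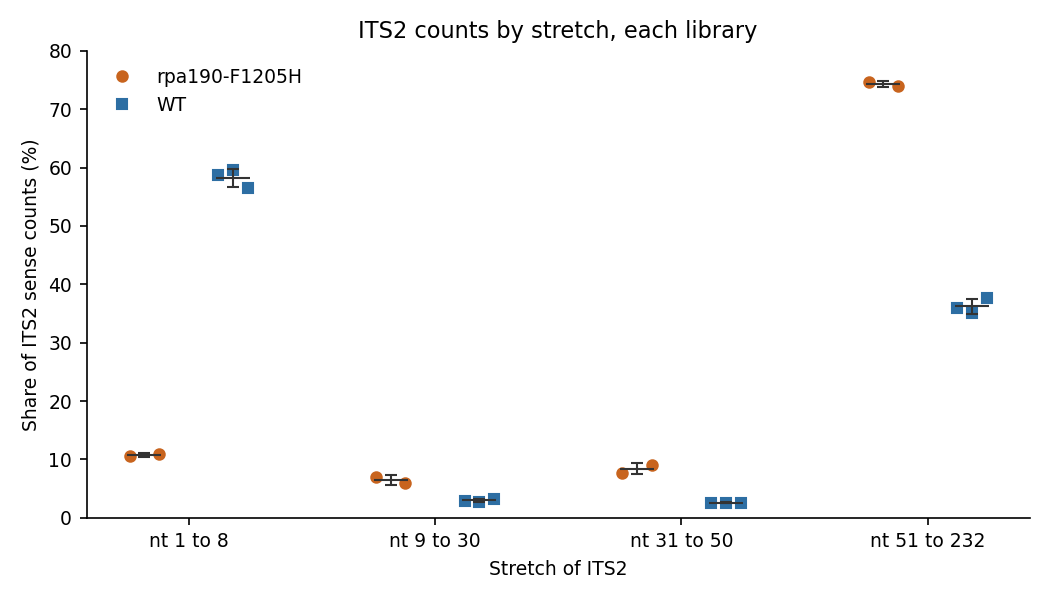
Share of ITS2 sense counts (%) in 4 stretches of ITS2, 1 point per library, rpa190-F1205H left of WT, with mean and SD as bars. At nt 1 to 8 the mutant libraries sit at 10.5% and 11% and the WT libraries between 56.5% and 59.5%, and in the other 3 stretches the mutant libraries lie above every WT library.

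Single nucleotides of the first 50 were tested with edgeR over all 35S positions, with each library scaled to its ITS2 total, so that a fold change compares shares of ITS2. At an adjusted p below 0.05, 15 of the 29 tested nucleotides rose and 9 fell. Over all 50, with no filter on low counts, 23 rose and 11 fell. Of all 35S positions tested the same way, 33.6% rose and 33.2% fell, or 32.0% and 28.2% with no filter. Scaled to the first 50 nt alone, 28 of 40 tested nucleotides rose and 8 fell, against 68.4% and 4.14% of all 35S positions on that scale. On the scale of ITS2, the 9 that fell are nt 1 to 9, and the 15 that rose all lie between nt 23 and nt 48. The median nucleotide of the first 50 held 6, 6 and 7 counts in the WT libraries. One that low in WT could pass the filter through the mutant libraries alone, and a fall there could hardly be called.

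Nt 1, the first nucleotide past 5.8S, held 1551 and 229 counts in the mutant libraries, and 2025, 1653 and 1567 in the WT libraries. Its share of ITS2 was 3.88% ± 0.0599 in the mutant and 24.0% ± 0.705 in WT, a log2 fold change of -2.63 ± 0.221 (SE; adjusted p = 1.36e-09, edgeR). The other 3 of the 4 lowest log2 fold changes in the stretch were also at C, with -2.67 at nt 2, -2.66 at nt 5 and -2.53 at nt 7. Nt 6, a U and the second highest position in WT, held 1.66% ± 0.0756 in the mutant and 8.64% ± 0.501 in WT. Nt 8, where the short tail ends, held only 66 and 13 counts in the mutant libraries, and 58, 59 and 48 in the WT libraries, and fell by 2.08 on the log2 scale (adjusted p = 5.07e-06, edgeR).

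Between nt 9 and nt 50 the highest position in the mutant was nt 30, at the length of the longer exosome intermediate. It held 1413 and 148 counts in the mutant libraries, and 74, 53 and 53 in the WT libraries. That was 3.49% and 2.53% of ITS2 in the mutant libraries, against 0.884%, 0.791% and 0.787% in the WT libraries, so the genotypes did not overlap, although the mutant libraries differed from each other. The log2 fold change was 1.89 ± 0.234 (adjusted p = 3.95e-07, edgeR). It was also the highest of these positions in WT. Nt 33, 3 nt further on, rose by 1.53 ± 0.237, to 2.00% ± 0.167 in the mutant against 0.692% ± 0.111 in WT. The 4 largest log2 fold changes in the stretch were at nt 29 (G, 3.63), nt 42 (G, 3.40), nt 32 (A, 2.91) and nt 46 (U, 2.77), which held at most 7 counts in any WT library and passed the filter only through the mutant libraries.

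In the rest of ITS2 many nucleotides held a larger share of ITS2 in the mutant. With edgeR 66 of 98 tested nucleotides rose, none fell and 32 did not pass, where 33.6% of all 35S positions rose and 33.2% fell. With no filter 89 of 182 rose, 1, nt 227, fell and 92 did not pass, where 32.0% of all positions rose and 28.2% fell. By DESeq2 71 of 179 rose and none fell, and at an unadjusted p below 0.05 the count of falls by edgeR was also 0. However, the median nucleotide of the rest held only 6, 5 and 5 counts in the WT libraries. A nucleotide that low in WT could pass the filter through the mutant libraries alone, and a fall there could hardly be called. For such nucleotides the counts of rises and falls, on each scale, are a description, and all 35S positions are not a like comparison. With no filter the median log2 fold change was 1.11 over the rest, and 0.13 over all positions of 35S. On this scale a smaller share next to 5.8S by itself leaves a larger one elsewhere. Scaled instead to the counts in the rest alone, 23 of 82 tested nucleotides rose and 21 fell, against 14.6% and 62.2% of all 35S positions on that scale. With no filter it was 35 and 28 of 182, against 14.4% and 52.2%. The median log2 fold change with no filter was then 0.08, with -0.91 over all positions of the gene. Scaled to the 35S total, 107 of 123 rose and none fell, against 46.3% and 20.9% of all positions, whose median log2 fold change was 0.48.

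The shape of the profile in the rest of ITS2 therefore differed as well as its level. Across its 182 nucleotides, Spearman's rho of the counts was 0.92 between the mutant libraries, 0.83 to 0.85 among the WT libraries and 0.59 to 0.69 between a mutant and a WT library. These correlations describe positions of the same libraries and rest on few counts at many of them in WT. The genotypes shared 7 of their 10 highest positions (nt 60, 69, 103, 139, 158, 191 and 208). The 10 highest positions of each library together held 36.6% and 29.1% of the rest in the mutant libraries, and 43.9%, 44.0% and 41.0% in the WT libraries.

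In windows of 10 nt, scaled to ITS2, 13 of 18 windows in the rest rose and none fell, while of the 5 windows in the first 50 nt 3 rose and 1 fell. Of all 35S windows 36.6% rose and 33.3% fell. The largest rise was at nt 111 to 120, which held 7.40% ± 0.378 of ITS2 in the mutant and 0.641% ± 0.0929 in WT (log2 fold change 3.52 ± 0.186, adjusted p = 4.76e-10, edgeR). That window includes G at nt 112, 114 and 115. It also includes a U at nt 118, which held more counts in each mutant library than any 1 of those G. The next largest rises were at nt 41 to 50 (2.44 ± 0.265), nt 91 to 100 (2.23 ± 0.230) and nt 211 to 220 (1.74 ± 0.159). The window that fell was nt 1 to 10 (-2.43 ± 0.174). On the scale of the rest, 4 of its 18 windows rose and 7 fell, against 12.9% and 70.1% of all windows. The 4 were those at nt 91, 111, 181 and 211, and the 7 included the last window before 25S (nt 221 to 232, -0.75 ± 0.197) and the windows with the runs of U.

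**Figure D3:**
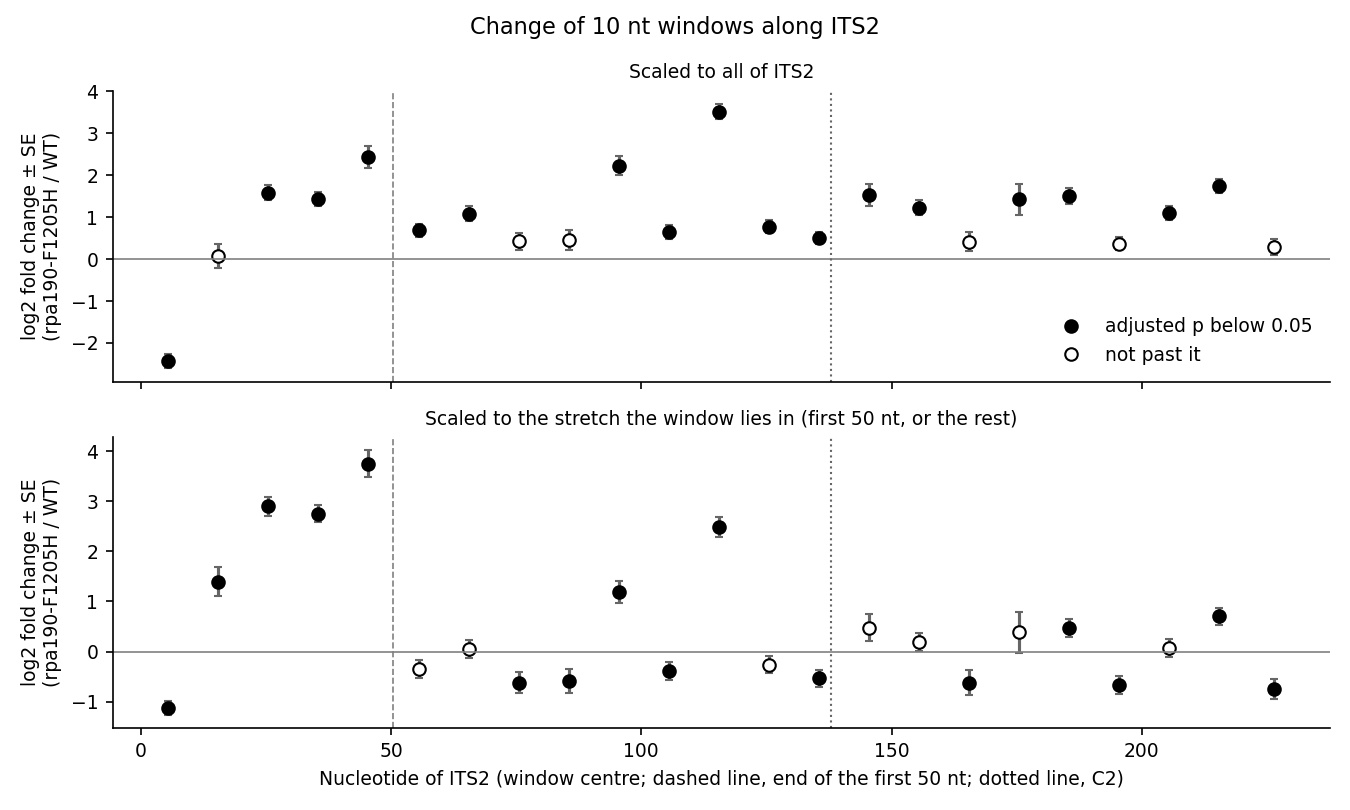
Log2 fold change of rpa190-F1205H over WT (edgeR, with SE) for 10 nt windows along ITS2, scaled to all of ITS2 above and to the stretch of the window below; filled points passed an adjusted p of 0.05. The window at nt 111 to 120 is the highest in the rest on both scales, at 3.52 and 2.48.

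Several nucleotides with almost no WT counts, most of them G, had many in the mutant. The rule for named positions gave nt 115, 114, 218, 95, 106, 185, 52 and 130 in the rest, of which 7 are G and nt 218 is A. Each had at most 4 counts in any WT library and so passed the filter on low counts only through the mutant libraries, where it is high. Their values are therefore given as a description, with no test. Nt 114 held 605 and 108 counts in the mutant libraries, and 3, 1 and 1 in the WT libraries. Its share of the rest was 2.25% ± 0.351 in the mutant and 0.0606% ± 0.0339 in WT. Nt 115 had 135 and 28 counts in rpa190-F1205H, with no WT library above 0. As a share of the rest it was at least 12.4-fold higher, taking 3 counts summed over the 3 WT libraries as the floor. Nt 112, also G, had 53 and 6 in the mutant and 0 in each WT library, at least 4.50-fold higher on the same footing, and was left out of the filtered fit. Nt 95, in the G pair upstream, held 254 and 42 counts in the mutant libraries, and 2, 2 and 1 in the WT libraries.

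Nt 118, a U that follows this group of G, was among the 5 highest positions of the rest in the mutant and not in WT. It held 1326 and 133 counts in the mutant libraries, and 22, 15 and 21 in the WT libraries, or 3.73% ± 0.928 of the rest against 0.733% ± 0.0960. Nt 217, a G near the 3′ end of ITS2, entered the 10 highest in the mutant with 909 and 113 counts, against 15, 16 and 18 in WT. Both rose as shares of ITS2, by 3.40 ± 0.270 and 3.22 ± 0.267 on the log2 scale (adjusted p = 5.69e-10 and 1.17e-09, edgeR).

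Summed over the rest of ITS2, G was the last base of 20.1% and 22.6% of 3′ ends in the mutant libraries, and 6.38%, 7.02% and 7.47% in the WT libraries, which did not overlap. G makes up 23.6% of these nucleotides, so WT ends lay at G less often than an even spread would give. U ended 42.3% and 37.0% in the mutant libraries, against 50.5%, 48.5% and 49.5% in the WT libraries, and C ended 18.3% ± 1.77 in the mutant and 21.4% ± 0.507 in WT. The shares at A overlapped, with 18.1% and 23.3% in the mutant libraries and 21.3%, 22.8% and 22.1% in the WT libraries (exact permutation p = 0.8). The adjusted p over the 4 bases was 0.267 for G, U and C (exact permutation test with Benjamini-Hochberg adjustment). By nucleotide, on the scale of the rest and with no filter, 20 of 43 G rose and none fell. At most 7.47% of the ends in a WT library were spread over these 43 G. A G thus held few WT counts on average, and a fall could hardly be called there. The absence of falls at G therefore does not set it apart from the other bases. The 45 A split into 9 that rose and 8 that fell, the 28 C into 2 and 6, and the 66 U into 4 and 14. Of all 35S positions on this scale with no filter, 14.4% rose and 52.2% fell. G also stood above the other bases outside ITS2. For G the median log2 fold change on this scale was 1.24 in the rest of ITS2 and 0.40 over 35S positions outside ITS2. For A it was -0.08 in the rest and -1.61 outside, for C -0.14 and -1.44, and for U -0.35 and -1.27.

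The base just downstream, the next to be copied by a polymerase whose RNA ends there, differed too. It was G after 43.5% ± 1.61 of ends in the mutant and 54.5% ± 0.965 in WT, and A after 32.3% ± 0.502 in the mutant and 22% ± 0.810 in WT, each without overlap. G follows 24.2% of these nucleotides, and in both genotypes the share of ends before G was above that. The shares before C were 10.7% ± 0.652 in the mutant and 9.46% ± 0.945 in WT (exact permutation p = 0.4), and before U 13.5% ± 0.455 in the mutant and 14.1% ± 0.734 in WT (exact permutation p = 0.6). The 5 highest positions of the rest in WT, nt 139, 60, 103, 208 and 194, all lie before G, while of the 5 in the mutant 3 do and nt 118 and nt 69 lie before A. On the scale of the rest, with no filter, 16 of 45 nucleotides before A rose and 3 fell, while 7 of 44 before G rose and 11 fell. Before C it was 3 and 1 of 28, and before U 9 and 13 of 65. The share over all 35S positions was 14.4% risen and 52.2% fallen, so the count of rises before G lay near it.

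**Figure D4:**
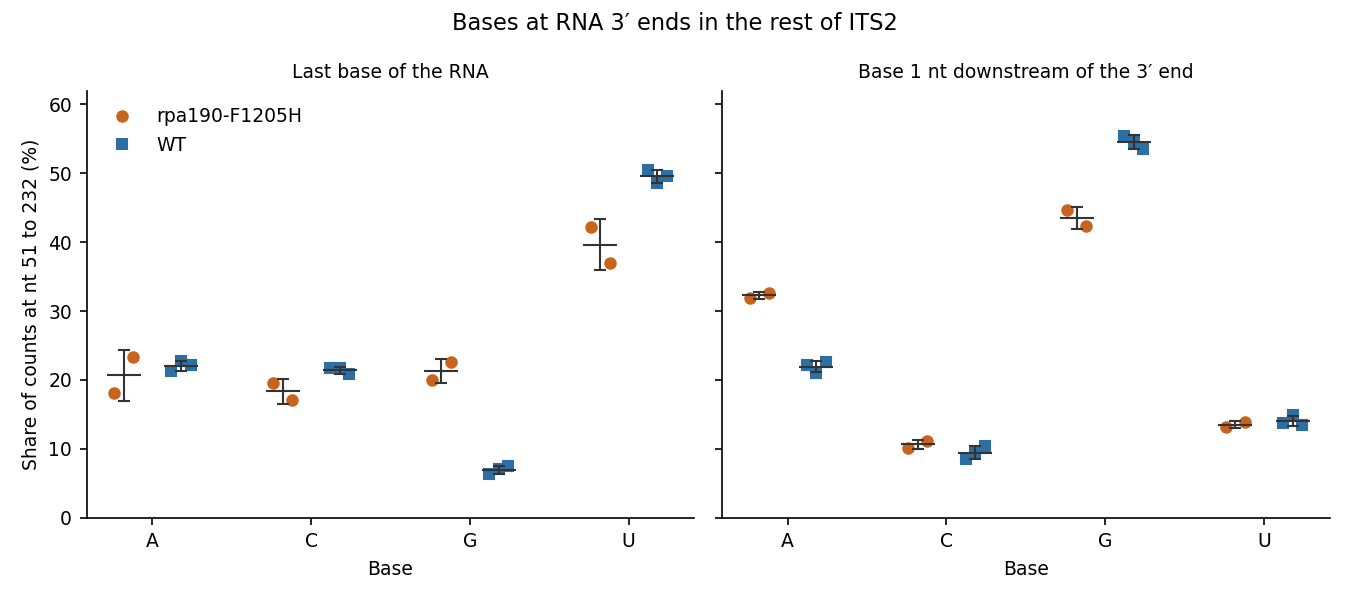
Share of the 3′ ends at nt 51 to 232 (%) by the last base of the RNA, left, and by the base 1 nt downstream, right, with 1 point per library, rpa190-F1205H left of WT, and mean and SD as bars. The mutant libraries lie at 20.1% and 22.6% for a last base G, against at most 7.47% in WT.

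The highest position of the rest lay 1 nt past the place given to C2, in both genotypes. Nt 139, an A, held 1699 and 255 counts in the mutant libraries, and 305, 241 and 218 in the WT libraries, and was the highest position of the rest in every library. It held 5.62% and 5.90% of the rest in the mutant libraries, against 10.1%, 10.2% and 8.61% in the WT libraries. On that scale it fell by 0.75 (log2, SE 0.225; adjusted p = 0.00338, edgeR), while as a share of ITS2 it was 4.28% ± 0.116 in the mutant and 3.49% ± 0.221 in WT and did not pass the test (log2 fold change 0.29 ± 0.210, adjusted p = 0.224, edgeR). Nt 138 held 1.48% ± 0.322 of the rest in the mutant and 1.44% ± 0.104 in WT, with a log2 fold change of 0.07 ± 0.256 on that scale (adjusted p = 0.80, edgeR). Nt 137 held 66 and 16 counts in the mutant libraries, and 11, 4 and 13 in the WT libraries.

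The 51 nt around C2 held 35.4% and 35.5% of the rest in the mutant libraries, and 31.4%, 32.5% and 31.8% in the WT libraries. Within 10 nt of C2 the direction turned, with 12.7% ± 0.161 in the mutant and 15.6% ± 0.269 in WT. Summed over the wider stretch the mutant held more on both sides of C2, and the difference was larger upstream. There nt 113 to 137 held 18% ± 0.387 in the mutant and 12.2% ± 0.527 in WT. That excess lay at the far edge and not next to C2. The window at nt 111 to 120, mostly inside this part, held 9.96% ± 0.576 in the mutant and 1.77% ± 0.231 in WT. Nearer to C2, nt 121 to 130 held less in the mutant, at 7.47% ± 0.130 against 8.98% ± 0.629 in WT. Downstream, nt 140 to 163 held 10.1% ± 0.208 in the mutant and 8.63% ± 0.480 in WT, also without overlap. Without nt 139 the stretch held 31.5% ± 0.0869 of the rest in the mutant and 24.6% ± 0.897 in WT.

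**Figure D5:**
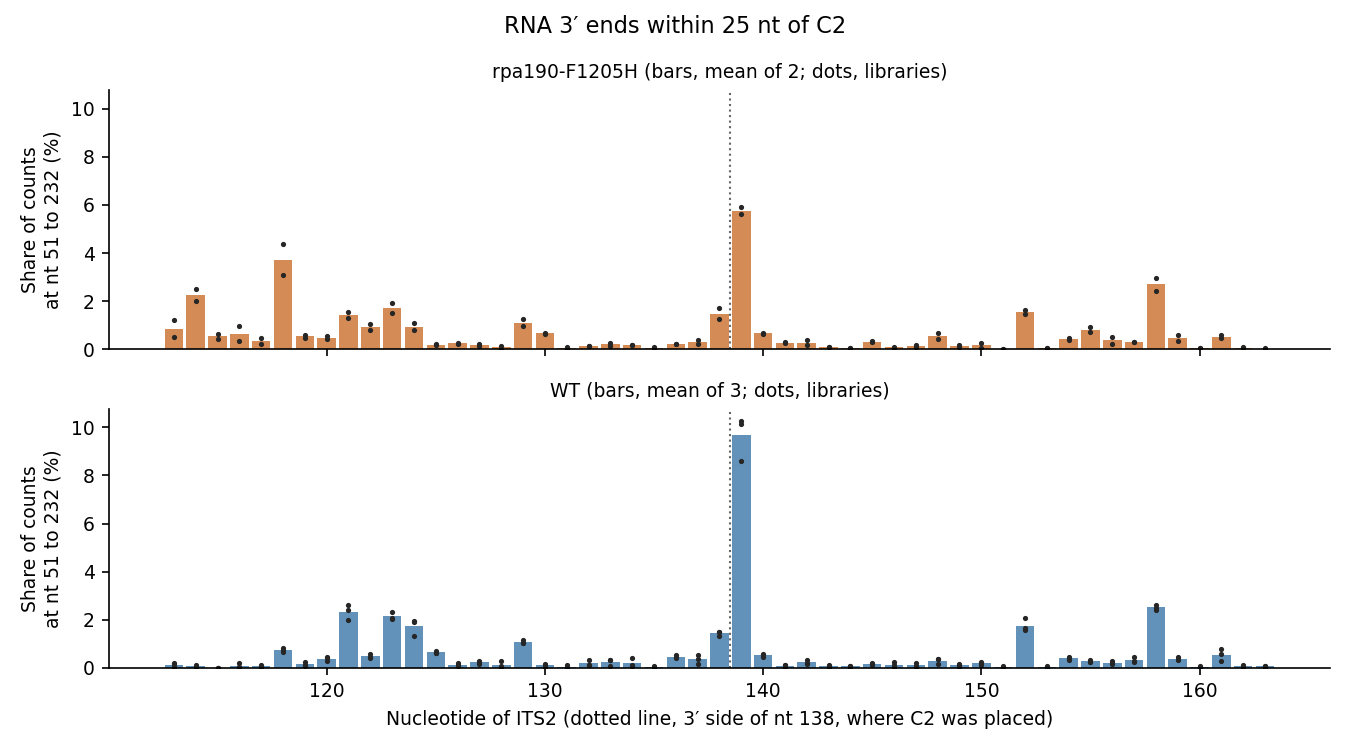
Share of the counts at nt 51 to 232 (%) at each nucleotide within 25 nt of C2, rpa190-F1205H above and WT below, bars being means and dots libraries. Nt 139 stands highest in both, at 5.76% in the mutant and 9.66% in WT, and toward the left nt 114 and nt 118 reach 2.25% and 3.73% in the mutant, against 0.0606% and 0.733% in WT.

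Other high positions of WT were also smaller parts of the rest in the mutant. Nt 60 held 1494 and 122 counts in the mutant libraries, and 233, 184 and 172 in the WT libraries, or 3.88% ± 1.5 of the rest against 7.45% ± 0.570. Its log2 fold change on that scale was -0.91 ± 0.245 (adjusted p = 0.00123, edgeR), and the mutant libraries differed from each other here, at 4.94% and 2.82%. Nt 103 held 3.44% ± 0.0148 of the rest in the mutant and 6.59% ± 0.50 in WT (-0.94 ± 0.230), and nt 194 held 1.00% ± 0.0409 in the mutant and 2.84% ± 0.545 in WT (-1.5 ± 0.256). As shares of all ITS2 none of these 3 passed the test in the fit with all libraries and no block, although nt 60 was called higher (log2 fold change 0.45, adjusted p = 0.0495, edgeR) without mutant library 2. Scaled to the 35S total the direction turned, and nt 60, nt 103 and nt 139 rose by 0.59, 0.54 and 0.73 on the log2 scale (adjusted p = 0.0311, 0.0212 and 0.00267, edgeR). The 6 largest falls on the scale of the rest, chosen after the values were seen, were at nt 64, 125, 72, 197, 167 and 194. None is G, whose low WT counts left little room for a fall. Nt 69, a C, differed in the other direction with 1209 and 101 counts in the mutant libraries, and 67, 45 and 61 in the WT libraries, but its shares of the rest overlapped, with 4.0% and 2.34% in the mutant libraries and 1.91% to 2.41% in WT.

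The runs of U in ITS2 were poor in 3′ ends in both genotypes. The 8 U at nt 78 to 85 held 1.61% ± 0.440 of the rest in the mutant and 2.11% ± 0.135 in WT, where an even spread would give 4.40%. The 7 U at nt 163 to 169 held 0.906% ± 0.0384 in the mutant and 1.71% ± 0.163 in WT, where an even spread would give 3.85%. Both runs were picked out by their sequence with the values known and were not tested themselves. In the first run, mutant library 2 at 1.92% lay close to WT library 2 at 1.96%. The windows that hold parts of them (nt 71 to 80, nt 81 to 90 and nt 161 to 170) fell on the scale of the rest, by 0.62, 0.59 and 0.62 (log2; adjusted p = 0.00438, 0.0172 and 0.0169, edgeR). These windows also hold other nucleotides, so their tests do not bear on the runs alone. The window at nt 71 to 80 includes nt 72, which by itself had a log2 fold change of -1.55 on that scale. The last 25 nt before 25S held 16.2% and 14.9% of the rest in the mutant libraries, and 15.2%, 15.9% and 15.3% in the WT libraries, which overlapped (exact permutation p = 1.0).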

How the data were processed

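The authors deposited raw counts of 3′ ends, given per strand for every base of 1 rDNA repeat and judged from the values to be counts because they are whole numbers with unequal totals. Per the submitters' processing notes the tools included SAMtools 1.3.1, BWA 0.6, Trim Galore 0.4.1 and bcl2fastq 2.18.0.012. What the sources used here leave unstated is the build, the settings and how repeats and duplicate reads were handled. Near-identical rDNA repeats share these counts.

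Groups came from the genotype label. Counts were tested with edgeR 4.0.16 in R 4.3.3 (quasi-likelihood test, filterByExpr, no block) over all sense positions, or 10 nt windows, of 35S. The library size was the ITS2 sense total, or the total of the stretch where stated. P-values were Benjamini-Hochberg adjusted over all of them, with a threshold of 0.05. SEs were taken from the log2 fold change and its F statistic (size over root F). Shares per library went into exact permutation tests, two-sided (SciPy 1.17.1, Python 3.11.15). Alternatives covered scaling, DESeq2 1.42.0, the filter, stretch and window lengths, a ceiling on counts, thinning, a block and each library left out. The fits were tested on simulated data. Over 35S, chi-square per degree of freedom was 4.46 for the mutant pair and 1.52, 2.53 and 2.29 for the WT pairs, above sampling noise in each. All 5 libraries were therefore counted singly. Over ITS2 alone it was 3.98 for the mutant pair and 1.21, 1.16 and 1.43 for the WT pairs. There the WT pairs had p = 0.10, 0.16 and 0.011 (chi-square test), so only the last passed 0.05.

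Named positions were the 8 highest and 8 lowest log2 fold changes in the rest and the 4 highest and 4 lowest in the first 50 nt, among called nucleotides whose libraries did not overlap. The 5 highest positions of each genotype and stretch, C2, nt 8 and nt 30 were named as well. No nucleotide of the rest was called lower, which left no lowest there. The stretches and rules were chosen with earlier results of these data known.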

Additional observations from a re-analysis of the deposited data

Results flagged for a closer look

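Antisense 3′ ends, which enter no comparison above, made up 0.309% and 0.274% of the sense count of ITS2 in the mutant libraries (mean 0.291% ± 0.0249), and 0.167%, 0.209% and 0.208% in the WT libraries (0.195% ± 0.0238). Every mutant library lay above every WT library, which drew attention to it. The numbers are small, with 125 and 16 antisense counts in the mutant libraries and 14 in each WT library. Over the whole 35S gene the antisense share was 0.119% and 0.108% in the mutant libraries, and 0.0735%, 0.0559% and 0.0614% in the WT libraries. The difference was not tested.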

How the results depend on the processing

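Among the summary results, 234 alternative values kept their direction and size, 13 moved and 13 reversed. For nucleotides named singly 386 kept direction and call, 12 became called, 2 lost the call and 4 reversed. Those 4 reversed on the scale of the rest: nt 60 (-0.91), nt 103 (-0.94), nt 139 (-0.75) and nt 208 (-0.60).

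Shares are mutant minus WT in percentage points. The last 25 nt (0.096 as reported) ranged from -0.56 to 0.752 with 1 library left out, and were -0.450 and -0.359 with the rest starting after 30 or 70 nt. The median position (-1 nt) was 1.17 nt after 70 nt. The C2 share was -2.92 within 10 nt. Last base A (-1.39) ranged from -4.00 to 1.22 with 1 library left out, and was 0.666 with counts capped at the 95th percentile, 4.66 for the base upstream and 10.3 for the base downstream. Downstream, C was 1.21 and G -11.0.

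Nucleotides that rose in the first 50 nt (15) numbered 28 on their own scale and 23 with no filter. Those in the rest (66) numbered 107 on the 35S scale and 23 on the rest scale, which was 35 with no filter. Falls in the rest (0) numbered 21 on the rest scale, 1 with no filter, and 0 to 1 with 1 library left out (1 without mutant library 2 or WT library 3). Windows of the rest that rose (13 of 18) numbered 4 of 18 on the rest scale. At 20 nt all 8 tested rose. Those that fell (0) numbered 7 on the rest scale. The cause was not tested.

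The labels do not say whether libraries of the same number shared a culture or batch. The r of their deviations was 0.171 and 0.0365, and pairs with unlike numbers ran from -0.171 to 0.122. Whether the number marks anything shared was not tested. With a replicate block 66 nucleotides of the rest rose and 1 fell. It called nt 194 lower (-0.58, adjusted p = 0.0314, edgeR), where the range with 1 library left out was an adjusted p of 0.0672 to 0.271. Alternatives on each stretch's scale, and the C2 share without nt 139, were added after seeing the data. WT counts of 5 or 6 at the median nucleotide limit what single positions can show.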
